A study of Mus musculus with 12 samples.

Results

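The genes described here are 38 genes of lipid synthesis in mouse liver, taken by name: 14 of the fatty acid branch, 9 of the triglyceride branch and 15 of the sterol branch. Of these, 34 had a usable probe set among the 5856 genes measured, which are all 14 fatty acid genes, 7 triglyceride genes and 13 sterol genes. Pnpla3, Cidec, Mvk and Mvd were not analysed here. Each gene was represented by the probe set with the highest mean over all arrays. Liver mRNA was hybridised to 12 Affymetrix arrays, with 3 male mice of 8 weeks for each of 4 genotypes that form a series of graded Nrf2 activity.

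Nrf2-null mice lack the transcription factor Nrf2. Keap1-KD mice carry a floxed Keap1 allele with which Keap1, the protein that holds Nrf2 in the cytosol, is reduced in the whole body. Keap1-HKO mice come from a cross of Keap1-KD mice with AlbCre+ mice, in which Cre is made in hepatocytes alone, so that they carry the knockdown in their other cells as well. Wild-type mice were C57BL/6, and the other lines were backcrossed to or kept on that background. All mice were untreated and had free access to the same rodent chow. None of the 4 groups carried AlbCre alone, so that AlbCre itself and the loss of hepatocyte Keap1 cannot be told apart.

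Liver makes fatty acids from citrate by way of acetyl-CoA and malonyl-CoA, lengthens them with elongases (Elovl) and puts in double bonds with desaturases (Scd, Fads). Esterification of the acids to glycerol phosphate gives triglyceride, while the mevalonate and squalene steps lead through lanosterol to cholesterol. SREBP-1c, encoded by Srebf1, drives the fatty acid genes, SREBP-2 drives the sterol genes, and Insig proteins hold both back when sterols are plentiful.

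Each targeted gene was low in the genotypes that target it. Log2 intensities of Nfe2l2, which encodes Nrf2, lay between 2.29 and 2.46 in Nrf2-null livers and between 8.81 and 8.94 in wild-type livers. In Keap1-KD livers Nfe2l2 lay between 8.65 and 9.03, and in Keap1-HKO livers between 7.93 and 8.54. It was called lower in Keap1-HKO than in wild-type livers, with a log2 fold change of -0.70 (adjusted p = 0.048). Keap1 lay between 5.59 and 5.92 in Keap1-KD, 3.34 and 3.39 in Keap1-HKO and 7.80 and 7.97 in wild-type livers. All 6 hepatocyte markers were measured, and their summed intensity was 297235 to 336978 in Keap1-HKO livers, against 337529 to 361353 in wild-type livers, and 0 of the 6 were called. Alb, Ttr and Serpina1c had log2 fold changes of 0.01, 0.02 and 0.03, and Apoa1, Cps1 and Tat of -0.38, -0.44 and -0.56. For any gene measured in whole liver, fewer cells of a type and less RNA per cell cannot be told apart. Replicate 1 of Nrf2-null and replicate 1 of Keap1-HKO stood apart from the other 2 arrays of their genotype (mean absolute log2 difference over genes of 0.58 and 0.90, against 0.15 to 0.56 for the other 10 arrays), and they had the lowest 3′ minus 5′ difference of the actin control probes (2.36 and 2.03, against 2.51 to 2.91 elsewhere). Keap1-HKO replicates 2 and 3 held skeletal muscle transcripts (8 markers summing to 32114 and 11893) and exocrine pancreas transcripts (9 markers, 170768 and 23545), and wild-type replicate 2 held the muscle ones (22853). On all other arrays the muscle sum was at most 93.7 and the pancreas sum at most 1299.9. Results without these 3 arrays are also given for some of the genes that changed, though not for all of them. Leaving these arrays out keeps Keap1-HKO replicate 1, itself an array that stands apart, as the 1 Keap1-HKO array.

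Promoter windows from RefSeq (GRCm38.p6, 250 bases before to 50 bases after a start) were matched by symbol for 27 of the 34 genes, in 39 windows. Scd1, Fads1, Dgat1, Dgat2, Fdps, Fdft1 and Sqle were not matched. The 3 windows below belong to genes of different branches, an elongase and a phosphatidate phosphatase that passed the test in Keap1-HKO livers and a sterol gene that did not, with capitals for matches to the sterol element TCACNCCAC, the E-box CACGTG, the antioxidant element core TGACNNNGC or the CCAAT box, on either strand.
Elovl5: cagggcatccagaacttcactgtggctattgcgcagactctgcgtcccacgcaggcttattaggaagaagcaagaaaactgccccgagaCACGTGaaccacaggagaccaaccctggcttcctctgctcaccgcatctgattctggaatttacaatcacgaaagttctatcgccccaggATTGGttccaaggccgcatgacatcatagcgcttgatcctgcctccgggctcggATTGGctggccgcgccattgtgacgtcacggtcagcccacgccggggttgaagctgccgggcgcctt
Lpin2: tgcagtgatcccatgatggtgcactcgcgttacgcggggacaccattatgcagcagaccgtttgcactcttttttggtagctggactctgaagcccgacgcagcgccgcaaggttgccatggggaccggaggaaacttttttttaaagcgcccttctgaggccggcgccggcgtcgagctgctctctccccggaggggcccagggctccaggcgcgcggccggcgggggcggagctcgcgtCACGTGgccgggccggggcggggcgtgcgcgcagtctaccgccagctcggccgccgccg
Hmgcs1: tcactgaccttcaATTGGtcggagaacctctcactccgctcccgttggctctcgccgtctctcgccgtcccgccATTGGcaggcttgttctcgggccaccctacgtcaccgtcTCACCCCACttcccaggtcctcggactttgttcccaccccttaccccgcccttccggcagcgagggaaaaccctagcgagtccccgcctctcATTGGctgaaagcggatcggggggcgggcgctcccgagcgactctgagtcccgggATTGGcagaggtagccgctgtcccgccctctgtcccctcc
These windows lie at chr9:77917115-77917414 for Elovl5, chr17:71183282-71183581 for Lpin2 (1 of 3 windows of this gene) and chr13:119690101-119690400 for Hmgcs1, all on the plus strand. The E-box begins at position -161 from the start in Elovl5 and at -9 in Lpin2, and the sterol element begins at -137 in Hmgcs1. Each motif was searched by itself, and matches that shared bases were each counted. A CCAAT box stood in a window of 10 of 10 matched sterol genes, 8 of 12 fatty acid genes and 3 of 5 triglyceride genes, against 41.1% of the 27025 genes of the table. The E-box was found for 6 of the 27 genes (8.09% of all genes), the antioxidant core for 4 (14%) and the sterol element for 2, Mlxipl and Hmgcs1 (1.44%). Besides Elovl5 and Lpin2, the genes with an E-box were Mlxipl, Hsd17b7, Dhcr7 and Insig1, which did not pass the test in Keap1-HKO livers. Elovl2, which passed it, held none of the searched motifs in either of its windows. A match of letters is a description and not a binding site, and a gene with several windows has more chances of one.

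Over the 4 genotypes, 5 of the 34 genes passed the overall moderated F test (Scd1, Elovl2, Elovl5, Fads1 and Cd36), which is 14.7%, against 4.83% of all 5856 genes. A gene was called at a Benjamini-Hochberg adjusted p under 0.05 over all genes, with limma. Compared to wild-type livers, 4 genes were called in Keap1-HKO livers, 3 lower (Scd1, Elovl2 and Elovl5) and 1 higher (Lpin2), which is 11.8% of the 34, against 3.94% of all genes (1.84% lower and 2.1% higher). In Keap1-KD livers 0 of the 34 were called, against 0.0683% of all genes, and in Nrf2-null livers 0 were called, against 0.41%. At an unadjusted p under 0.05 the same limma fit gave 12 genes in Keap1-HKO, 2 in Keap1-KD and 5 in Nrf2-null livers, against 18.6%, 2.54% and 6.92% of all genes. Duncan's test, which the methods name, gave 9, 1 and 2 in the same order, against 12%, 2.25% and 5.4% of all genes. In the overall test 15 of the 34 had an unadjusted p under 0.05, against 16.5% of all genes. Without the 2 arrays that stand apart, 10 of the 34 were called in Keap1-HKO (11.5% of all genes), 0 in Keap1-KD (0.12%) and 1, Cd36, in Nrf2-null livers (1.01%), 6 between Keap1-HKO and Keap1-KD livers (5.74%), and 12 in the F test (12.6%). Without the 3 arrays that hold muscle transcripts, 8 were called in Keap1-HKO livers, where 2255 of all 5856 genes were called. The 3 comparisons share the wild-type arrays.

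**Figure D1:**
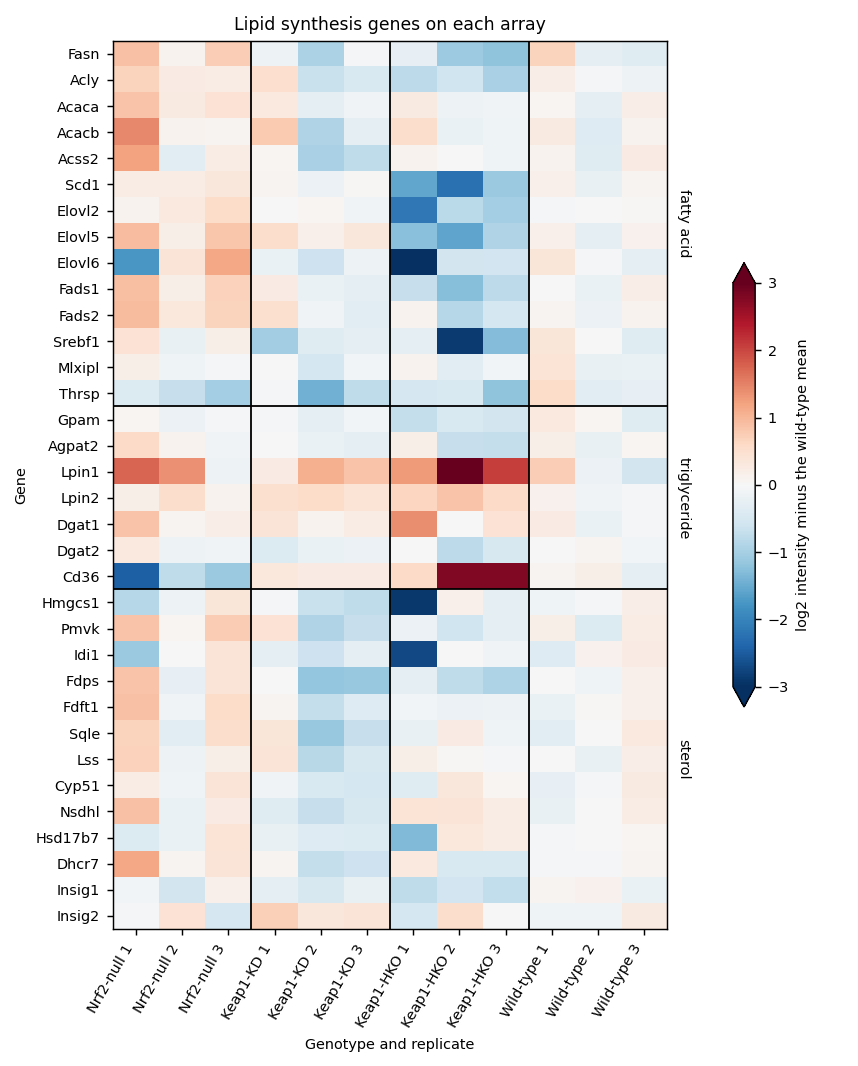
Each row is 1 of the 34 genes and each column 1 array, with the colour showing the log2 intensity minus the wild-type mean (scale from -3 to 3, values beyond it at the end colours). Scd1, Elovl2 and Elovl5 are blue on all 3 Keap1-HKO arrays, and Elovl6, Hmgcs1 and Idi1 are dark blue on Keap1-HKO replicate 1 alone of that genotype.

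The branch medians lay apart. The median log2 fold change of the 14 fatty acid genes was -0.81 in Keap1-HKO, -0.16 in Keap1-KD and 0.38 in Nrf2-null livers against wild-type, and all 3 called genes that were lower belong to it. Within it, the 6 desaturases and elongases had a median of -1.28 in Keap1-HKO livers, with 6 of 6 below 0. The 7 triglyceride genes had medians of 0.60, 0.24 and 0.19 in the same order, and the 13 sterol genes -0.21, -0.39 and 0.24, with 0 sterol genes called in any comparison. In Keap1-HKO livers 4 of the 7 triglyceride genes lay above 0 and 3 below, and the 6 other than Cd36 had a median of 0.10. At an unadjusted p under 0.05, 1 sterol gene was below the threshold in Keap1-HKO, 1 in Keap1-KD and 0 in Nrf2-null livers, and Duncan's test gave 1, 0 and 0. The median over all genes was -0.01, -0.01 and 0.02. Without the 2 arrays that stand apart, the triglyceride medians were 0.21, 0.24 and 0.002 in that order. The sterol medians were then -0.05, -0.39 and 0.11, and the fatty acid medians -0.81, -0.16 and 0.31. On the single Keap1-HKO arrays the triglyceride median was 0.57, -0.02 and 0.43. These medians are descriptions, and the differences between branches were not tested.

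**Figure D2:**
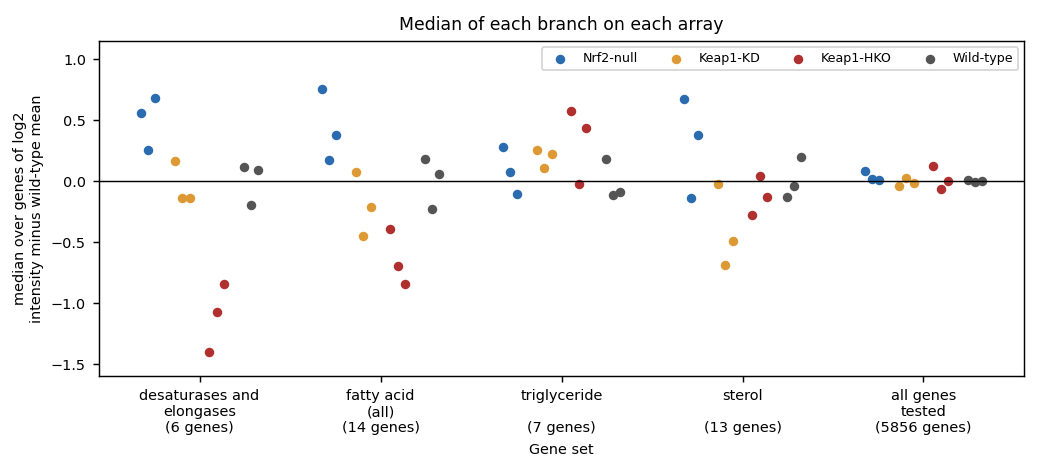
Each point is 1 array, placed at the median over the genes of a set of the log2 intensity minus the wild-type mean, for 4 sets of lipid genes and all genes tested. The Keap1-HKO arrays lie at -1.40, -1.07 and -0.84 for the 6 desaturases and elongases, while the wild-type arrays lie between -0.19 and 0.11.

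The 3 genes called lower in Keap1-HKO livers act on the chain after it is built. Among genes that were not called, Acly, Gpam and Insig1 also had all 3 Keap1-HKO arrays below the wild-type ones. Scd1, the delta-9 desaturase that makes oleate from stearate, was 66.5% ± 7.13 lower (SEM of the Keap1-HKO mice, n = 3), Elovl5, an elongase of polyunsaturated acids, 57.4% ± 5.80 lower, and Elovl2, which lengthens long polyunsaturated acids further, 57.0% ± 10.5 lower than in wild-type livers. These percentages are of mean un-logged intensities, and the SEM does not include the spread of the wild-type mice.

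Scd1 had log2 intensities of 15.50, 15.50 and 15.61 in Nrf2-null, 15.36, 15.11 and 15.32 in Keap1-KD, 13.72, 13.04 and 14.16 in Keap1-HKO, and 15.44, 15.05 and 15.36 in wild-type livers. All 3 Keap1-HKO arrays lay below the other 9. The log2 fold change against wild-type was -1.64 ± 0.24 (SE, adjusted p = 0.00481). Elovl5 had 14.08, 13.34 and 13.98 in Nrf2-null, 13.69, 13.30 and 13.51 in Keap1-KD, 11.91, 11.57 and 12.26 in Keap1-HKO, and 13.31, 12.86 and 13.29 in wild-type livers, again with the Keap1-HKO arrays below the other 9. Its log2 fold change was -1.24 ± 0.24 (SE, adjusted p = 0.0192). Elovl2 had 13.43, 13.61 and 13.86 in Nrf2-null, 13.30, 13.38 and 13.20 in Keap1-KD, 11.16, 12.51 and 12.29 in Keap1-HKO, and 13.29, 13.31 and 13.35 in wild-type livers. Its lowest value was on Keap1-HKO replicate 1, and the 3 Keap1-HKO arrays lay below the other 9 here too. The log2 fold change was -1.33 ± 0.29 (SE, adjusted p = 0.0321), and it was -0.91 (adjusted p = 0.00133) without the 2 arrays that stand apart and -2.15 (adjusted p = 0.00291) without the 3 arrays with muscle transcripts.

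These 3 calls did not all hold when arrays were left out. The Scd1 call held without any of the 12 arrays and ended when the 2 genotypes were fitted alone (adjusted p = 0.0987). The Elovl5 call ended without Keap1-HKO replicate 2 or wild-type replicate 1 or 3, and with the 2 genotypes alone (adjusted p up to 0.102 over all alternatives), and the Elovl2 call ended without any wild-type or Keap1-KD array or Nrf2-null replicate 2, and with the 2 genotypes alone (up to 0.224). In the F test the Elovl2 call ended without any wild-type or Keap1-KD array, Nrf2-null replicate 2 or 3, or Keap1-HKO replicate 3 (adjusted p up to 0.0688).

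**Figure D3:**
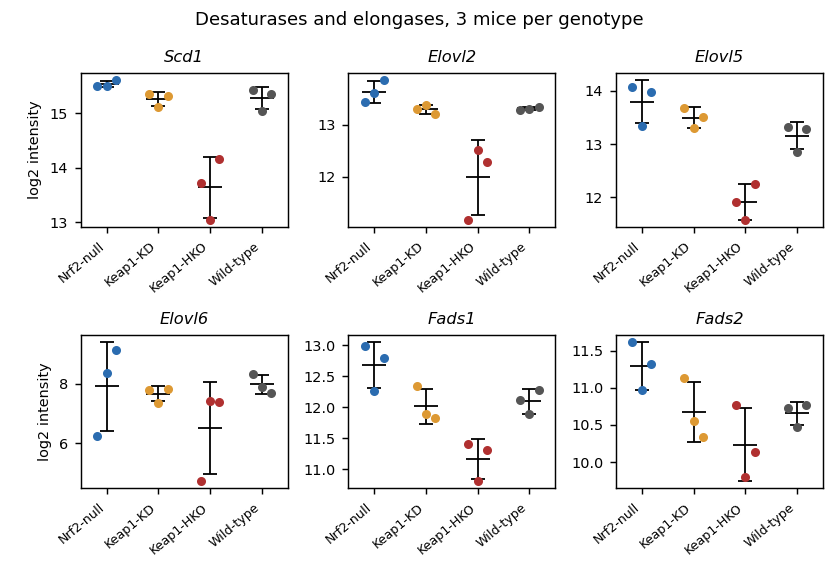
Points are the log2 intensities of 3 mice per genotype, with the horizontal line at the mean and bars of 1 SD, for 6 desaturases and elongases, each on its own axis. The 3 Keap1-HKO points of Scd1, Elovl2, Elovl5 and Fads1 lie below the points of the other genotypes, and Elovl6 has its lowest values on replicate 1 of Keap1-HKO and of Nrf2-null.

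Fads1, the delta-5 desaturase of polyunsaturated acids, passed the overall test (adjusted p = 0.0214) but not the comparison with wild-type. It had 12.99, 12.26 and 12.79 in Nrf2-null, 12.34, 11.88 and 11.82 in Keap1-KD, 11.40, 10.80 and 11.31 in Keap1-HKO, and 12.11, 11.88 and 12.28 in wild-type livers. The Keap1-HKO arrays lay below the other 9, with a log2 fold change of -0.92 ± 0.24 (SE, adjusted p = 0.0656) against wild-type. The overall call ended without Nrf2-null replicate 1 or 3 or Keap1-HKO replicate 2 or 3, and without the 3 arrays with muscle transcripts (adjusted p up to 0.0746), and without the 2 arrays that stand apart the comparison with wild-type was called (-1.04, adjusted p = 0.0217). Fads2, the delta-6 desaturase, had a log2 fold change of -0.42 (adjusted p = 0.42), and its Keap1-HKO and wild-type arrays overlapped. Elovl6, which lengthens palmitate, had -1.46 with a standard error of 0.80 (adjusted p = 0.342). Keap1-HKO replicate 1 was at 4.71 and the other 2 arrays at 7.42 and 7.40, against 8.33, 7.90 and 7.68 in wild-type livers. Nrf2-null livers were also spread, at 6.23, 8.36 and 9.14. Without the 2 arrays that stand apart Elovl6 was -0.56 ± 0.25 (SE, adjusted p = 0.191) in Keap1-HKO livers, and it passed the F test (adjusted p = 0.0391).

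The 5 enzymes that supply and join carbon were not called in any comparison. Fasn, fatty acid synthase, had log2 intensities of 11.17, 10.40 and 11.03 in Nrf2-null, 10.15, 9.35 and 10.26 in Keap1-KD, 10.05, 9.21 and 9.07 in Keap1-HKO, and 10.97, 9.99 and 9.92 in wild-type livers. The Keap1-HKO and wild-type arrays overlapped, and the log2 fold change was -0.85 ± 0.38 (SE, adjusted p = 0.267). Without the 3 arrays with muscle transcripts it was -0.39. Acly, which makes cytosolic acetyl-CoA from citrate, was lower on all 3 Keap1-HKO arrays than on any wild-type array, with a log2 fold change of -0.78 (adjusted p = 0.171). Acaca and Acacb, the acetyl-CoA carboxylases, and Acss2, which activates acetate, had log2 fold changes between -0.02 and 0.07 in Keap1-HKO livers. In Nrf2-null livers all 5 lay above 0, between 0.37 and 0.58, with adjusted p of 0.676 or more. Without the 2 arrays that stand apart, Acss2 was at -0.05 there. Acacb was then at 0.09, Acly at 0.24, Acaca at 0.35 and Fasn at 0.43.

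Among the regulators, Srebf1 showed the widest spread in Keap1-HKO livers. It had 11.58, 10.91 and 11.31 in Nrf2-null, 10.11, 10.77 and 10.85 in Keap1-KD, 10.85, 8.26 and 9.84 in Keap1-HKO, and 11.50, 11.14 and 10.79 in wild-type livers. Keap1-HKO replicate 1 lay among the wild-type arrays and the other 2 lay below them, with a log2 fold change of -1.49 ± 0.53 (SE, adjusted p = 0.171). Without the 2 arrays that stand apart it was -2.09 (adjusted p = 0.0148). The Keap1-HKO arrays that remain there are those with muscle and pancreas transcripts, and without the 3 arrays that hold muscle transcripts it was -0.29 (adjusted p = 0.599). Mlxipl, which encodes the carbohydrate-responsive factor ChREBP, had -0.11, and Thrsp (Spot14), a lipogenic nuclear protein, -0.72 (adjusted p = 0.324). Thrsp lay below wild-type in all 3 other genotypes, at -0.71 in Nrf2-null and -0.75 in Keap1-KD livers, and none of these passed the test.

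In the triglyceride branch, the phosphatidate phosphatases and the fatty acid translocase lay above wild-type on all 3 Keap1-HKO arrays and the first acyltransferase below it, and Lpin2 alone was called. Lpin2 (lipin 2) had log2 intensities of 9.53, 9.88 and 9.45 in Nrf2-null, 9.84, 9.92 and 9.76 in Keap1-KD, 10.002, 10.22 and 9.94 in Keap1-HKO, and 9.49, 9.25 and 9.33 in wild-type livers. Its 3 Keap1-HKO arrays lay above the other 9, and it rose by 62.1% ± 9.94 (SEM, n = 3), which is 0.70 ± 0.15 (SE, adjusted p = 0.0268). Its second probe set gave 0.34, and the call ended with the mean of both, as it did without Keap1-HKO replicate 2, Keap1-KD replicate 3 or any wild-type array, without the 3 arrays that hold muscle transcripts, and with the 2 genotypes fitted alone (adjusted p up to 0.206). Lpin1 (lipin 1) had 10.78, 10.40 and 8.89 in Nrf2-null, 9.29, 10.11 and 9.90 in Keap1-KD, 10.30, 12.32 and 11.11 in Keap1-HKO, and 9.76, 8.85 and 8.48 in wild-type livers. The Keap1-HKO arrays lay above the wild-type ones with a log2 fold change of 2.21 ± 0.60 (SE, adjusted p = 0.0773). Without the 2 arrays that stand apart it was 2.69 (adjusted p = 0.0141), and without the 3 arrays with muscle transcripts 1.17 (adjusted p = 0.273).

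Cd36, a membrane protein that takes up long-chain fatty acids, passed the overall test (adjusted p = 0.0274). It had log2 intensities of 5.22, 6.91 and 6.54 in Nrf2-null, 7.98, 7.92 and 7.92 in Keap1-KD, 8.24, 10.44 and 10.44 in Keap1-HKO, and 7.75, 7.85 and 7.40 in wild-type livers. The Nrf2-null arrays were the lowest 3 and the Keap1-HKO arrays the highest 3, and 2 Nrf2-null arrays were under an intensity of 100 (6.64), the level that the methods asked of a probe set in at least 1 group, as was the Nrf2-null mean of 6.23. The log2 fold change against wild-type was 2.04 in Keap1-HKO (standard error 0.58, adjusted p = 0.0912), 0.27 in Keap1-KD (adjusted p = 1) and -1.44 in Nrf2-null livers (adjusted p = 0.647). Leaving out the 2 arrays that stand apart gave 2.77 (adjusted p = 6.47e-06) in Keap1-HKO and -0.94 (adjusted p = 0.0225) in Nrf2-null livers. Leaving out the 3 arrays with muscle transcripts gave 0.67 (adjusted p = 0.386) in Keap1-HKO livers. The overall call ended without any 1 of 10 arrays, which are all but Nrf2-null replicate 2 and Keap1-HKO replicate 1, and without the 3 arrays with muscle transcripts (adjusted p up to 0.0939).

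The 2 arrays with the highest Cd36 and Lpin1 were also those with muscle and pancreas transcripts. Wild-type replicate 2, with a muscle sum of 22853, had Cd36 at 7.85 and Lpin1 at 8.85, and held few pancreas transcripts. Since Keap1-HKO replicate 1 is the one array of its genotype without these transcripts and also stands apart, the part of either in the Cd36 and Lpin1 values cannot be told apart. Summed Kupffer cell and macrophage markers (5 of 9 measured) were 3795 to 4614 in Keap1-HKO livers, against 4418 to 5151 in wild-type livers. Summed endothelial markers (5 of 6 measured) were 2077 to 2595 in Keap1-HKO livers, against 2238 to 2447 in wild-type livers. Of the 7 adipocyte markers Fabp4 alone was measured, with an intensity of 76.3 to 491.0 in Keap1-HKO livers, against 184.2 to 395.4 in wild-type livers.

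**Figure D4:**
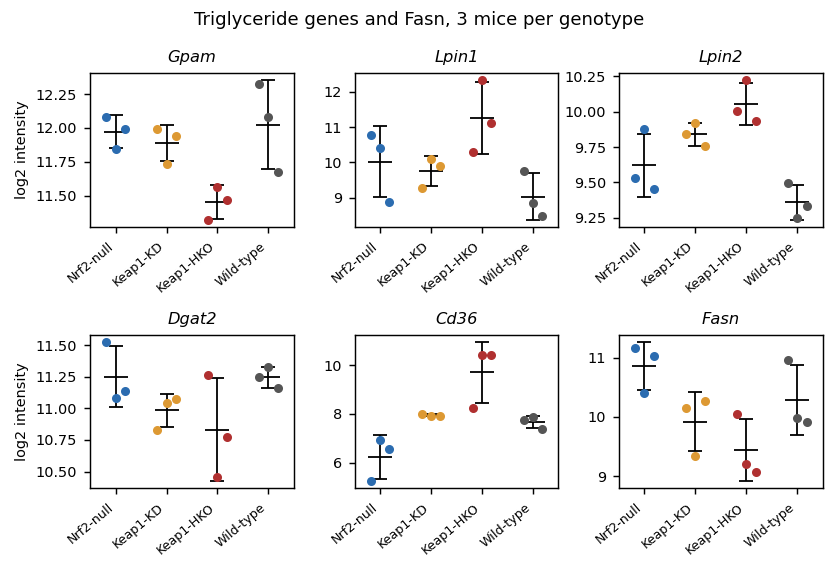
Points are the log2 intensities of 3 mice per genotype, with the horizontal line at the mean and bars of 1 SD, for 5 triglyceride genes and Fasn, each on its own axis. Cd36 is lowest in Nrf2-null and highest in Keap1-HKO livers, and Lpin2 is highest in Keap1-HKO livers.

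Gpam, the mitochondrial acyltransferase of the first step, had 12.08, 11.84 and 11.99 in Nrf2-null, 11.99, 11.73 and 11.94 in Keap1-KD, 11.32, 11.57 and 11.47 in Keap1-HKO, and 12.32, 12.08 and 11.67 in wild-type livers. The Keap1-HKO arrays lay below the other 9, with a log2 fold change of -0.57 ± 0.17 (SE, adjusted p = 0.109). Dgat2, which adds the last acyl chain, had 11.53, 11.08 and 11.14 in Nrf2-null, 10.83, 11.04 and 11.08 in Keap1-KD, 11.26, 10.45 and 10.77 in Keap1-HKO, and 11.25, 11.33 and 11.16 in wild-type livers. Keap1-HKO replicate 1 lay among the wild-type arrays, and the log2 fold change was -0.42 (adjusted p = 0.301), against -0.63 (adjusted p = 0.0136) without the 2 arrays that stand apart and 0.06 (adjusted p = 0.847) without the 3 arrays with muscle transcripts. Agpat2, an acyltransferase of the second step, had -0.41 (adjusted p = 0.4), with Keap1-HKO arrays at 12.42, 11.55 and 11.53. Without the 2 arrays that stand apart it was called (-0.71, adjusted p = 0.015). The Keap1-HKO arrays kept there are those with muscle and pancreas transcripts. Dgat1, which catalyses the same step as Dgat2, had 0.60 (adjusted p = 0.341), and 0.21 (adjusted p = 0.471) without the 2 arrays that stand apart.

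The 13 sterol genes measured did not pass the test in any genotype. Hmgcs1, the cytosolic HMG-CoA synthase, had log2 intensities of 12.76, 13.46 and 13.97 in Nrf2-null, 13.58, 12.94 and 12.85 in Keap1-KD, 10.72, 13.77 and 13.32 in Keap1-HKO, and 13.47, 13.55 and 13.80 in wild-type livers. Keap1-HKO replicate 1 lay far below the other 11 arrays, and the log2 fold change of -1.01 had a standard error of 0.66 (adjusted p = 0.414). Without that array it was -0.06 (adjusted p = 0.973), and without the 3 arrays with muscle transcripts, which leaves that array alone in Keap1-HKO, it was -2.92 (adjusted p = 0.0132). Idi1, the isomerase of isopentenyl diphosphate, showed the same low value on that array (9.15, against 11.87 and 11.77 on the other Keap1-HKO arrays). Fdps, farnesyl diphosphate synthase, had 12.46, 11.38 and 12.002 in Nrf2-null, 11.60, 10.46 and 10.49 in Keap1-KD, 11.34, 10.86 and 10.69 in Keap1-HKO, and 11.60, 11.48 and 11.77 in wild-type livers. All 3 Keap1-HKO arrays lay below the wild-type ones, with a log2 fold change of -0.65 (adjusted p = 0.333), and in Keap1-KD livers it was -0.77 (adjusted p = 1). Without the 3 arrays with muscle transcripts Fdps was at -0.35 in Keap1-HKO livers.

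Sqle, squalene epoxidase, had 9.57, 8.58 and 9.43 in Nrf2-null, 9.25, 7.75 and 8.19 in Keap1-KD, 8.68, 9.15 and 8.77 in Keap1-HKO, and 8.59, 8.90 and 9.19 in wild-type livers. Its Keap1-HKO arrays lay within the wild-type range, with a log2 fold change of -0.03 (adjusted p = 0.963) whose sign changed when the arrays were centred or quantile normalized again. Dhcr7, the reductase of the last step to cholesterol, had 11.75, 10.68 and 10.98 in Nrf2-null, 10.69, 9.88 and 9.98 in Keap1-KD, 10.88, 10.14 and 10.15 in Keap1-HKO, and 10.55, 10.56 and 10.69 in wild-type livers. The Keap1-HKO and wild-type arrays overlapped, with a log2 fold change of -0.21 (adjusted p = 0.688). Nsdhl, a C4-demethylation enzyme after lanosterol, had 10.24, 9.17 and 9.61 in Nrf2-null, 9.001, 8.67 and 8.87 in Keap1-KD, 9.77, 9.74 and 9.59 in Keap1-HKO, and 9.13, 9.36 and 9.58 in wild-type livers. It was the one sterol gene whose 3 Keap1-HKO arrays lay above all 3 wild-type arrays, at 0.34 (adjusted p = 0.443).

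Insig1, which retains SREBPs in the endoplasmic reticulum and is itself an SREBP target, had 12.78, 12.32 and 13.01 in Nrf2-null, 12.57, 12.37 and 12.65 in Keap1-KD, 12.09, 12.28 and 12.11 in Keap1-HKO, and 12.94, 12.99 and 12.66 in wild-type livers. The Keap1-HKO arrays were the lowest 3 of the 12, with a log2 fold change of -0.70 ± 0.18 (SE, adjusted p = 0.0672). Insig1 was called with a variance trend in limma, with Duncan's test, with gene-by-gene array weights and without Nrf2-null replicate 2. Insig2, its homologue, had 11.79, 12.30 and 11.36 in Nrf2-null, 12.58, 12.20 and 12.25 in Keap1-KD, 11.32, 12.39 and 11.84 in Keap1-HKO, and 11.72, 11.72 and 12.13 in wild-type livers. Its log2 fold change was -0.01 (adjusted p = 0.987) in Keap1-HKO livers, 0.04 with centred arrays and -0.60 without the 3 arrays with muscle transcripts. The remaining 5 sterol genes, Pmvk (phosphomevalonate kinase), Fdft1 (squalene synthase), Lss (lanosterol synthase), Cyp51 (lanosterol demethylase) and Hsd17b7 (a C4-demethylation reductase), had log2 fold changes between -0.35 and 0.06 in Keap1-HKO livers.

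In Nrf2-null livers, fatty acid genes lay mostly above wild-type, without passing the test. The lowest adjusted p of the 34 genes was 0.584, for Elovl5, with a log2 fold change of 0.64 ± 0.24 (SE) and all 3 Nrf2-null arrays above the wild-type ones. Fads1 had 0.59 (adjusted p = 0.659), Fads2 0.64 (adjusted p = 0.702) and Fasn 0.58 (adjusted p = 0.823). In all, 6 of the 34 genes had every Nrf2-null array above every wild-type array and 2 had them below, against 20.8% of all genes in either direction (12.1% above and 8.76% below). Of the 34 log2 fold changes, 10 lay below 0, against 47.3% of all genes. In Keap1-KD livers these numbers were 3 and 4, against 15.2% of all genes (7.02% above and 8.21% below), and 27 of the 34 log2 fold changes lay below 0, against 52.6% of all genes. The adjusted p of each of the 34 was 1 there. Lpin2 had the lowest unadjusted p (0.00784), with a log2 fold change of 0.48 and all 3 Keap1-KD arrays above the wild-type ones. In Keap1-HKO livers the groups did not overlap for 14 of the 34 genes, 4 higher and 10 lower, against 27.5% of all genes (12.7% higher and 14.9% lower). There 26 of the 34 log2 fold changes lay below 0, against 51.2% of all genes.

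Keap1-HKO and Keap1-KD livers share the knockdown and differ in Cre and in what is left of Keap1 in hepatocytes. Between them 2 of the 34 genes were called, both lower in Keap1-HKO, against 1.43% of all genes (0.649% lower). An unadjusted p under 0.05 was found for 8 of the 34 (12.8% of all genes), and Duncan's test gave 7 (9.61%). Scd1 had a log2 fold change of -1.62 ± 0.24 (SE, adjusted p = 0.0117) and Elovl5 of -1.59 ± 0.24 (SE, adjusted p = 0.0131). Deviations of same-numbered arrays of these 2 genotypes had correlations of 0.215, 0.165 and 0.105. With the replicate number as a block over all 4 genotypes, 4 of the 34 genes were called, with 125 of all 5856 genes. In a block fit of these 2 genotypes alone 0 were called, with 11 genes in all. Both calls also ended without Keap1-KD replicate 1 or 3, leaving 0 of the 34 called, and the Scd1 call ended with the mean of its probe sets. Elovl2 had -1.31 (adjusted p = 0.0655), Fads1 -0.85 (adjusted p = 0.15), Cd36 1.77 (adjusted p = 0.213) and Lpin1 1.48 (adjusted p = 0.326). Without the 3 arrays with muscle transcripts these were -2.13, -0.62, 0.30 and 0.54 in that order, and Hmgcs1 was -2.41. For Nsdhl, all 3 Keap1-HKO arrays lay above the Keap1-KD ones, with a log2 fold change of 0.85 ± 0.24 (SE, adjusted p = 0.155). Without the 2 arrays that stand apart, Elovl2, Fads1 and Cd36 were called here, at -0.893, -0.961 and 2.499. Their adjusted p were 0.00248, 0.0448 and 1.57e-05 in that order. Nsdhl was then called here too (0.81, adjusted p = 0.0328) and in the F test (adjusted p = 0.0474). The Keap1-HKO arrays kept there are those with muscle and pancreas transcripts. Duncan's test and gene-by-gene array weights also called Elovl2, Fads1, Cd36 and Nsdhl between these genotypes. The groups did not overlap for 10 of the 34 genes, 4 higher and 6 lower, against 18.7% of all genes (9.22% higher and 9.48% lower), and 16 of the 34 log2 fold changes lay below 0, against 50.2% of all genes.

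**Figure D5:**
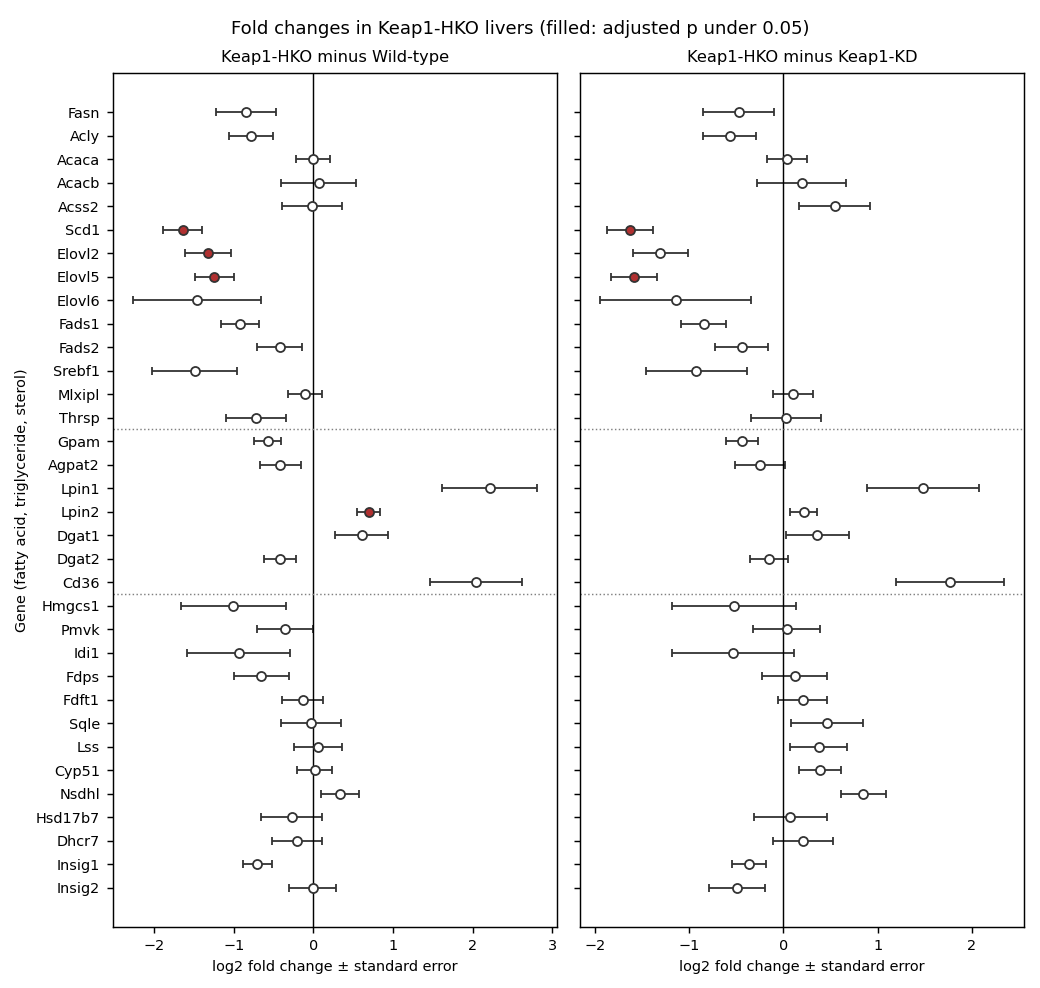
Points are log2 fold changes with their standard errors for the 34 genes, Keap1-HKO minus wild-type on the left and Keap1-HKO minus Keap1-KD on the right, with dotted lines between the branches and filled points at an adjusted p under 0.05. Scd1 and Elovl5 are filled on both sides, Elovl2 and Lpin2 on the left alone, and no sterol gene on either.

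Of other genes of these pathways, taken from a fixed list, 63 were measured. In Keap1-HKO livers 2 were called higher and 2 lower (3.94% of all genes), in Nrf2-null livers 1 lower (0.41%), in Keap1-KD livers 0 (0.0683%), and between Keap1-HKO and Keap1-KD livers 1 higher (1.43%). Scd2, a desaturase related to Scd1, had 6.45, 6.83 and 7.71 in Keap1-HKO and 5.58, 5.81 and 5.30 in wild-type livers. All wild-type arrays were under an intensity of 100, so that Keap1-HKO livers were at least 1.28-fold higher in Scd2 (adjusted p = 0.0169), the mean log2 value being set against that limit. Sc5d, a desaturase of late cholesterol synthesis, had 10.74, 11.39 and 11.51 in Keap1-HKO and 12.42, 12.59 and 12.31 in wild-type livers, a log2 fold change of -1.23 ± 0.20 (SE, adjusted p = 0.00766). Fabp5, a fatty acid binding protein, had 9.07, 9.24 and 8.85 in Keap1-HKO and 10.18, 11.72 and 10.37 in wild-type livers, a log2 fold change of -1.70 (adjusted p = 0.0416). The overall test also called Acsm1, an acyl-CoA synthetase of medium-chain acids (adjusted p = 0.0131), Lbr, a sterol reductase of the nuclear envelope (adjusted p = 0.041), and Pparg (adjusted p = 0.00265). Pparg, a nuclear receptor of lipid storage, had 4.54, 4.49 and 4.47 in Nrf2-null, 6.86, 6.15 and 6.25 in Keap1-KD, 7.19, 6.48 and 6.81 in Keap1-HKO, and 6.46, 5.57 and 5.83 in wild-type livers. Its Nrf2-null arrays were the lowest 3, but 9 of the 12 arrays lay under an intensity of 100.

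Fitm1, a lipid droplet protein known from skeletal muscle, had 5.89, 4.90 and 4.51 in Nrf2-null, 8.53, 9.005 and 8.69 in Keap1-KD, 11.42, 9.83 and 9.96 in Keap1-HKO, and 8.80, 7.97 and 8.26 in wild-type livers. All Nrf2-null arrays were under an intensity of 100, so that Nrf2-null livers were at least 3.25-fold lower in Fitm1 (adjusted p = 0.0114), and its log2 fold change in Keap1-HKO livers was 2.06 (adjusted p = 0.0332). Muscle transcripts were found on Keap1-HKO replicates 2 and 3 and wild-type replicate 2, and their part in the Fitm1 values was not tested.

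Different probe sets of 1 gene did not always point the same way. Of 17 of the 34 genes with several probe sets, the signs differed in Keap1-HKO against wild-type livers for Acss2, Cyp51, Fdft1 and Insig2, in Nrf2-null against wild-type livers for Cyp51, Hsd17b7 and Insig2, and between Keap1-HKO and Keap1-KD livers for Dgat2. The second probe sets of Scd1, Elovl5, Lpin1 and Cd36 gave log2 fold changes of -1.72, -1.15, 2.64 and 2.31 in Keap1-HKO against wild-type livers.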

How the data were processed

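The deposited values are log2 intensities of Affymetrix mouse genome arrays, 1 array for each of 3 mice in 4 genotypes, which the authors normalized with gcRMA (version not given in the sources used here), keeping probe sets over an intensity of 100 in at least 1 genotype. gcRMA equalizes array distributions, so that a change in total mRNA would not show, and the number of arrays limits the precision. Of 9622 probe sets, 8554 had 1 gene symbol, 371 several and 697 none. The probe set with the highest mean over arrays stood for each of 5856 genes.

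All 12 arrays were fitted as 4 genotypes with limma 3.58.1 in R 4.3.3 (8 residual and 2.19 prior degrees of freedom, median SD within genotypes 0.29), with two-sided moderated tests, an overall F test and Benjamini-Hochberg adjustment over all genes at 0.05. Scripts were tested on simulated data. Per the methods, each array was a separate mouse. Duncan's test, which the methods name, was an alternative, as were array weights, other filters, scalings and probe sets, and leaving out arrays. Values on every array were given for members called in any test, the 4 of each branch with the lowest overall F p, and a fixed list of 10, and other pathway genes were named where called. The members and lists were chosen with earlier results of these data known. Promoter sequences came from RefSeq (GRCm38.p6).

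Pairing was checked by correlating the deviations of same-numbered arrays from their genotype means. These correlations were -0.157 to 0.787, over 0.1 in 15 of 18 pairs. The highest (0.787, 0.685 and 0.699) were between Nrf2-null and Keap1-HKO, the genotypes whose replicate 1 arrays stand apart. For Keap1-HKO against Keap1-KD they were 0.215, 0.165 and 0.105, and the numbers were taken as a possible pairing, on the data alone. Arrays of different number were not compared, so that these correlations cannot show whether the numbers pair mice.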

Additional observations from a re-analysis of the deposited data

How the results depend on the processing

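In all, 29 alternatives were run, 12 of which left out 1 array. Duncan's test and the one-way ANOVA before it were not adjusted over genes, so that their counts are not on the scale of the others. The gene-by-gene array weights, the block fit of 2 genotypes and leaving out the 3 arrays with muscle transcripts, which leaves 1 Keap1-HKO array assumed to vary like the others, were chosen after seeing the data, and the default array weights did not converge. The number of the 34 genes called in Keap1-HKO against wild-type livers, 4, became 9 with Duncan's test, 9 with default weights, 15 with gene-by-gene weights, 10 without the 2 arrays that stand apart, 8 without the 3 arrays and 0 with the 2 genotypes alone. For Keap1-HKO against Keap1-KD, 2 became 7, 4, 6, 6, 8 and 0 in that order, 1 with the mean of probe sets, 4 with the replicate block and 0 with the block in these 2 genotypes alone. For Nrf2-null, 0 became 2 with Duncan's test, 8 with default and 2 with gene-by-gene weights, and for Keap1-KD 0 became 7 with default weights. In the F test over 4 genotypes, 5 became 12 with the unadjusted one-way ANOVA, 22 and 16 with default and gene-by-gene weights, and 12 without the 2 arrays. Leaving out 1 array gave 1 to 7 of the 34 in Keap1-HKO (1 without wild-type replicate 1 or 3, 2 without wild-type replicate 2, Keap1-HKO replicate 2 or Keap1-KD replicate 3, 7 without Keap1-HKO replicate 1), 0 to 4 against Keap1-KD (0 without Keap1-KD replicate 1 or 3, 4 without Keap1-HKO replicate 1), 0 to 0 in Keap1-KD and Nrf2-null, and 2 to 6 in the F test (2 without Nrf2-null replicate 3 or Keap1-HKO replicate 3). Over all 5856 genes, 231 calls in Keap1-HKO became 703 with Duncan's test, 1078 with gene-by-gene weights, 671 without the 2 arrays, 2255 without the 3 arrays, 49 with 2 genotypes alone and 381 with the replicate block. Against Keap1-KD, 84 became 563, 528, 336, 2419 and 21, and 11 with the block in 2 genotypes. In Nrf2-null, 24 became 316 with Duncan's test, 1379 and 278 with default and gene-by-gene weights, 59 without the 2 arrays, 13 with 2 genotypes and 44 with the block. In Keap1-KD, 4 became 132 with Duncan's test, 323 and 40 with the weights, 7 without the 2 arrays, 1 without the 3, 7 with 2 genotypes, 1 with low values raised to an intensity of 100 and 0 after a second quantile normalization. In the F test, 283 became 969 with Duncan's test, 1837 and 1323 with the weights, 740 without the 2 arrays and 856 without the 3. Leaving out 1 array gave 89 to 272 in Keap1-HKO, 21 to 114 against Keap1-KD, 12 to 36 in Nrf2-null, 1 to 5 in Keap1-KD and 179 to 401 in the F test. Each cause was not tested.

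Some log2 fold changes that had not been called changed sign. In Nrf2-null against wild-type livers, default and gene-by-gene weights gave 0.15 and 0.044 for Gpam, -0.055 and -0.075 for Dgat2 and 0.13 and 0.058 for Hmgcs1, default weights 0.15 for Insig1, and the mean of probe sets 0.024 for Insig2. Without the 2 arrays that stand apart, Dgat2 was -0.13, Hmgcs1 0.11 and Srebf1 -0.033 there. In Keap1-KD against wild-type livers, Gpam was 0.085 and 0.0017 with the weights, and Scd1 0.00062 with centred arrays. In Keap1-HKO against wild-type livers, Sqle was 0.0018 after quantile normalization, 0.012 when centred, 0.047 with default weights and 0.062 without the 2 arrays, and Insig2 was 0.036 when centred, 0.15 with the mean of probe sets, 0.29 with default weights and 0.26 without the 2 arrays. Without the 3 arrays, Dgat2 was 0.057 and Dhcr7 0.26 there. In Keap1-HKO against Keap1-KD livers, Hmgcs1 was 0.61 and 0.38 with the weights and 0.42 without the 2 arrays, Insig2 0.026 with default weights, Fdps -0.071 and Dhcr7 -0.039 without the 2 arrays, and Fasn 0.13, Srebf1 0.28 and Dgat2 0.28 without the 3 arrays. Leaving out 1 array also changed signs. The ranges were -0.37 to 0.034 for Dgat2, -0.039 to 0.46 for Dhcr7, -0.078 to 0.49 for Fdps and -1.105 to 0.42 for Hmgcs1 against Keap1-KD. In Keap1-KD they were -0.063 to 0.024 for Elovl2, -0.24 to 0.020 for Fads1, -0.31 to 0.012 for Gpam and -0.13 to 0.061 for Scd1. In Nrf2-null livers they were -0.13 to 0.088 for Dgat2, -0.23 to 0.097 for Gpam, -0.49 to 0.11 for Hmgcs1, -0.31 to 0.031 for Insig1, -0.28 to 0.19 for Insig2 and -0.055 to 0.30 for Srebf1, and in Keap1-HKO livers -0.28 to 0.26 for Insig2 and -0.19 to 0.12 for Sqle.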
